A study of Mus musculus with 14 samples.

Results

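Long noncoding RNAs are transcripts that work as RNA rather than as templates for protein. The 9 described here are Bc1, H19, Meg3, Neat1, Malat1, Kcnq1ot1, Gas5, Snhg1 and Snhg12. They were taken by gene symbol from 2 deposited tables of whole mouse kidney RNA sequencing, which share 23682 genes. All 9 were in both tables, and all 9 passed the filter on low counts that left 18810 genes for testing. They were chosen with the level of Bc1 in diseased against control kidneys already known, so the members' values set against the controls are given as a description, without a test.

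The kidneys came from 14 mice in 3 groups, all on doxycycline in their drinking water. The mice of 2 groups were i-TERTci, heterozygous for an actin-rtTA and a tetop-TERTci transgene, in which doxycycline induces a catalytically inactive telomerase reverse transcriptase in all tissues and the animals become proteinuric. One of these groups received GSK2830371, an inhibitor of the phosphatase WIP1 (n = 5, 28 to 49 days on doxycycline), and the other received the DMSO vehicle (n = 5, 29 to 38 days), in both cases by daily intraperitoneal injection from about day 15. The control group carried actin-rtTA alone (n = 4, all at 30 days). The labels record no injection and no tetop-TERTci transgene for the controls, so disease, transgene and injection cannot be told apart in any comparison with them. They also give no sex, library batch or sequencing date. The libraries are from whole organs, so fewer cells of a type and less RNA per cell cannot be told apart. As a check of the labels, reads of Tert averaged 1111 ± 955 normalised counts in GSK2830371 kidneys, 1554 ± 788 in DMSO kidneys and 148 ± 27.8 in control kidneys (SD), with no overlap between i-TERTci and control libraries. Reads in genes per library numbered 48434771 to 49422279 in GSK2830371 kidneys, 47194888 to 48846771 in DMSO kidneys and 48469086 to 64581825 in control kidneys.

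The members differ in how they are made and where they act. Bc1 is a short rodent RNA transcribed by RNA polymerase III, best known from neurons, where it is carried into dendrites and represses translation through eIF4A and the poly(A)-binding protein. H19, Meg3 and Kcnq1ot1 are imprinted, that is, expressed from 1 parental allele, and Kcnq1ot1 silences neighbouring genes on the allele from which it is read. Neat1 is the scaffold of paraspeckles, Malat1 is a component of nuclear speckles, and Gas5, Snhg1 and Snhg12 carry small nucleolar RNAs (snoRNAs) in their introns while their spliced transcripts are short-lived.

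Because the results turn most on Bc1, its whole transcript is shown, as annotated by GENCODE M21 on GRCm38 at chr7:144914470-144914637, plus strand. It has 168 bases and no introns, and no other annotated gene overlaps it. The capitals mark its longest run of A, 23 bases at positions 77 to 99 counted from the first base.
Bc1: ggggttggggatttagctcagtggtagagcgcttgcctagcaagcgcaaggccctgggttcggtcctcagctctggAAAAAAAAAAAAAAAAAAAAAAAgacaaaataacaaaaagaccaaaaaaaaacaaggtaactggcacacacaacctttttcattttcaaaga
The part before the capitals descends from a transfer RNA and is shared with the ID repeats of rodent genomes, so reads from it can be ambiguous in placement. The centre is rich in A, with 70 As in the whole transcript (41.7% of its bases), and the last part is unique to Bc1. An A run of at least this length occurs in 619 of 141767 GENCODE transcripts (0.437%).

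Bc1 was abundant in every control and almost never in either i-TERTci group. Values below are normalised counts, that is, whole reads divided by the size factor of the library, in the order of the replicate numbers. Bc1 had 0, 1.96, 0, 4.38 and 0.845 normalised counts in GSK2830371 kidneys, 3.67, 1.86, 0, 0 and 3.35 in DMSO kidneys, and 1973, 1338, 1659.9 and 1169 in control kidneys. The i-TERTci libraries held 0 to 5 reads each and the controls 981 to 1772, with no overlap. The summed reads were 8 in GSK2830371 kidneys, 9 in DMSO kidneys and 5813 in control kidneys. Per unit of size factor, the rate was 1002-fold lower in GSK2830371 than in control kidneys (exact 95% interval 508 to 2322) and 868-fold lower in DMSO than in control kidneys (457 to 1898). These intervals cover counting error only. On the scale of log2(normalised count + 1) used in the fit, the difference from control was -9.58 for GSK2830371 and -9.38 for DMSO, each with an SE of 0.59.

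**Figure D1:**
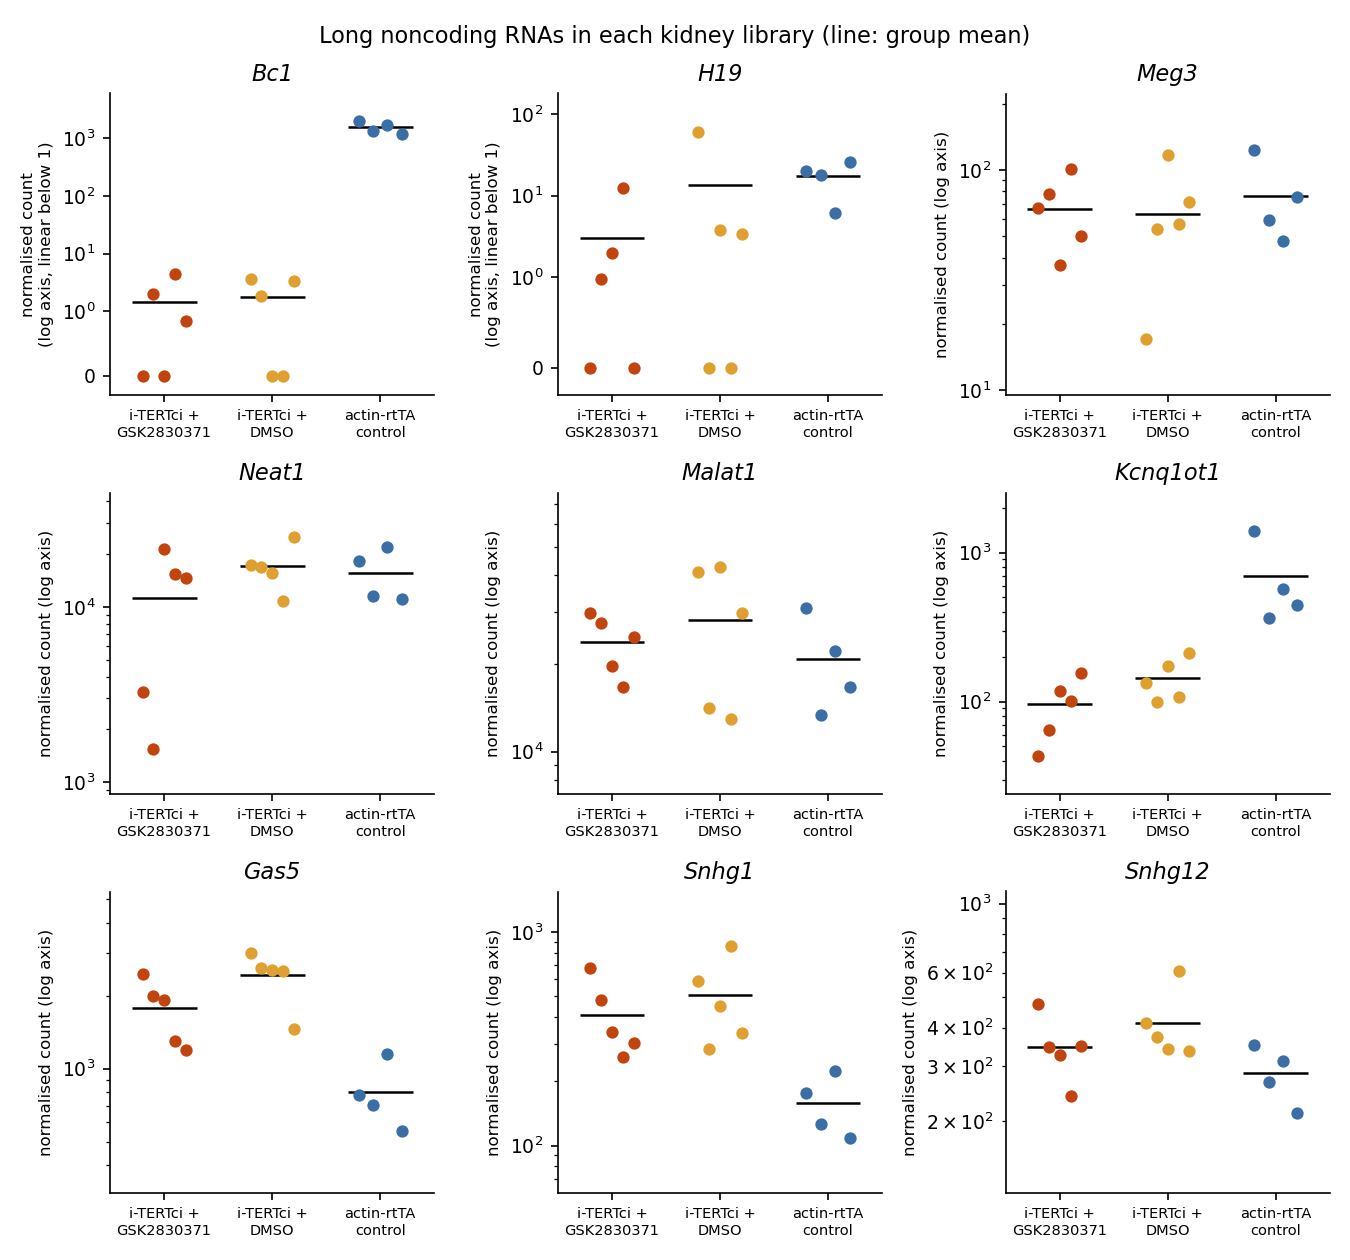
Normalised counts of the 9 long noncoding RNAs in each library, on log axes (for Bc1 and H19 linear below 1). Points are libraries, from left to right the 5 GSK2830371, 5 DMSO and 4 control kidneys, and lines are group means. Bc1 is at or near 0 in all 10 i-TERTci libraries and between 1169 and 1973 in the controls.

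Per kilobase of exon, Bc1 ranked 209 in the controls among the 18333 tested genes with an annotated length, with a mean of 9137 normalised counts per kilobase. Its rank was 16175 in GSK2830371 kidneys and 15773 in DMSO kidneys. Bc1 thus belonged to the more abundant transcripts per length in the 4 control libraries and lay near the detection limit in the other 10.

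Other short genes, as a class, were more often higher than lower in i-TERTci kidneys. Apart from Bc1, 73 tested genes have under 200 bases of exon. Of these, 33 were higher and 12 lower in GSK2830371 than in control kidneys, where 24.3% of all tested genes were higher and 22% lower (limma, adjusted p under 0.05). In DMSO against control kidneys 37 were higher and 11 lower, where 25.2% of all tested genes were higher and 23.1% lower. Their median log2 difference was 1.06 for GSK2830371 and 1.24 for DMSO. Of 318 tested genes that share an A run of the length found in Bc1, 61 were higher (19.2%) and 75 lower (23.6%) in GSK2830371 than in control kidneys. In DMSO against control kidneys 60 were higher (18.9%) and 81 lower (25.5%), and whether these shares differ from those of all genes was not tested. Both classes were set up with the values in view. The short genes include annotated microRNA and snoRNA genes and processed pseudogenes. Whether their reads came from host or parent transcripts was not tested.

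A few other short RNAs had the pattern of Bc1. The mitochondrial transfer RNA genes mt-Ti, mt-Tm and mt-Td had no read in any of the 10 i-TERTci libraries. In the controls, mt-Tm averaged 207 normalised counts, with 96 to 283 reads per library. Not all of the class went this way, since mt-Tp averaged 83.8 in GSK2830371 kidneys, 73.8 in DMSO kidneys and 10.9 in control kidneys. Its log2 difference was 2.91 for GSK2830371 (adjusted p = 2.7e-05) and 2.77 for DMSO (adjusted p = 3.7e-05). Rn7sk, another RNA polymerase III transcript, averaged 64.0 ± 25.9 (SD, n = 5) in GSK2830371 kidneys, 62.3 ± 48.6 (n = 5) in DMSO kidneys and 53.6 ± 28.5 (n = 4) in control kidneys. It passed no test.

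The libraries differed in make-up between the i-TERTci groups and the controls. Mitochondrial ribosomal RNA took 0.0415% to 0.0905% of reads in GSK2830371 kidneys, 0.0360% to 0.0754% in DMSO kidneys and 0.329% to 0.613% in control kidneys. Processed pseudogenes took 0.196% to 0.213% in GSK2830371 kidneys, 0.210% to 0.241% in DMSO kidneys and 0.0826% to 0.156% in control kidneys. The mitochondrial gene mt-Nd6, encoded on the strand opposite to the other mitochondrial messenger RNAs, averaged 9885 ± 5042 normalised counts in GSK2830371 kidneys, 9547 ± 2372 in DMSO kidneys and 349 ± 222 in control kidneys (SD). All 3 measures separate the same libraries that Bc1 separates, and they were chosen with earlier results of these data known. Other shares overlapped. Antisense genes took 0.133% to 0.179% of reads in GSK2830371 kidneys, 0.130% to 0.176% in DMSO kidneys and 0.145% to 0.166% in control kidneys. Protein-coding genes took 98.7% to 98.9% in GSK2830371 kidneys, 98.5% to 98.9% in DMSO kidneys and 98.3% to 98.8% in control kidneys. The part of library make-up in the Bc1 difference was not tested. Because the splits in make-up run along the transgene, library preparation and genotype cannot be told apart here.

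**Figure D2:**
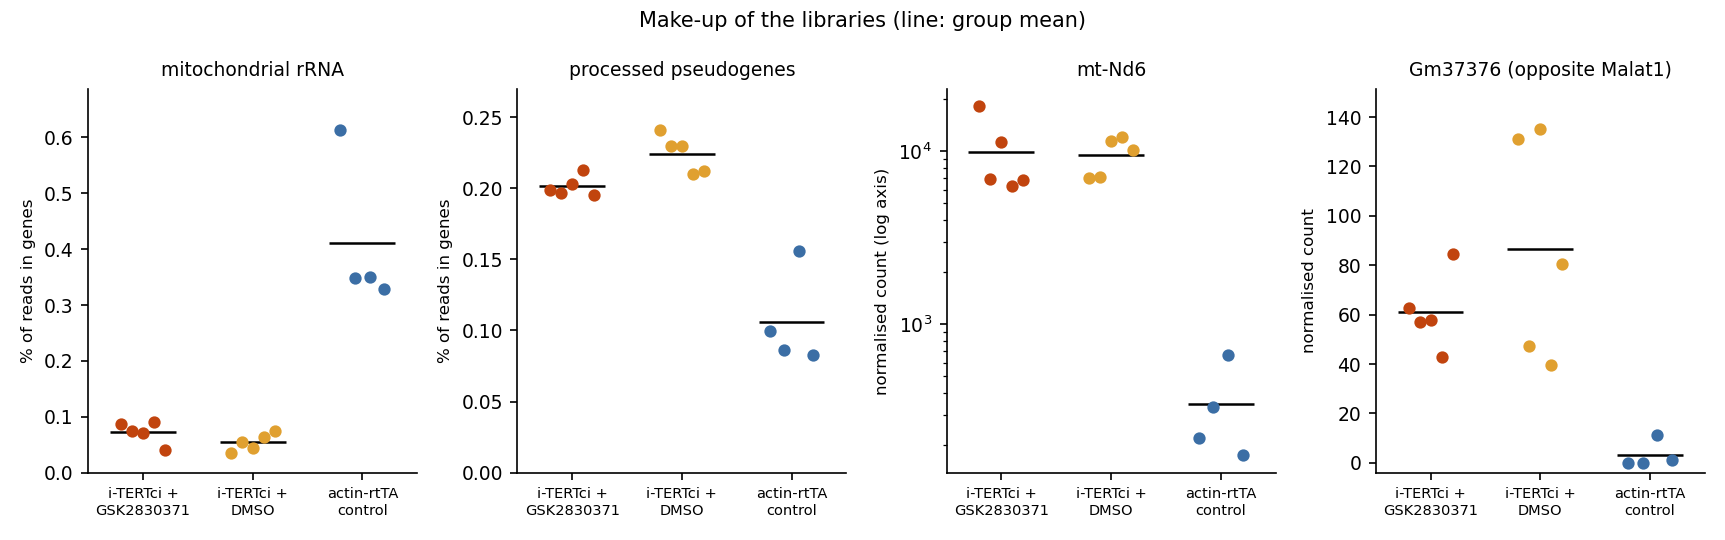
Make-up of each library: the share of reads in mitochondrial ribosomal RNA and in processed pseudogenes, and the normalised counts of mt-Nd6 (log axis) and of Gm37376, which lies opposite Malat1. Points are libraries of the GSK2830371, DMSO and control groups from left to right and lines are group means. In each panel the 4 controls stand apart from the 10 i-TERTci libraries, and the panels were chosen with earlier results of these data known.

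Neurons are the textbook source of Bc1. Of 10 tested neuron markers, 2 were higher and 1 lower in GSK2830371 than in control kidneys, and 2 were higher and 2 lower in DMSO than in control kidneys. With 46.3% of all tested genes changed in GSK2830371 and 48.3% in DMSO kidneys, the markers changed no more often than genes at large. Their summed level was 585 to 945 normalised counts in GSK2830371 kidneys, 498 to 910 in DMSO kidneys and 555 to 629 in control kidneys, so the groups overlapped. Rbfox3, a nuclear protein of mature neurons, averaged 21.5 in GSK2830371 kidneys, 21.2 in DMSO kidneys and 51.3 in control kidneys. Its log2 difference from control was -1.21 for GSK2830371 (adjusted p = 0.011) and -1.30 for DMSO (adjusted p = 0.0071). Uchl1, a ubiquitin hydrolase abundant in neurons, went the other way, with differences of 1.99 for GSK2830371 (adjusted p = 0.0062) and 1.89 for DMSO (adjusted p = 0.0080).

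The proteins known to bind Bc1 were read at high levels in every group. Of 9 tested, 6 were higher and 2 lower in GSK2830371 kidneys, and 6 were higher and 2 lower in DMSO kidneys, each against controls. Over all tested genes 46.3% changed in GSK2830371 and 48.3% in DMSO kidneys. Eif4a1, the helicase that Bc1 inhibits, averaged 11144 ± 1087 normalised counts in GSK2830371 kidneys, 16084 ± 5789 in DMSO kidneys and 5930.2 ± 701 in control kidneys (SD). It rose by 0.91 for GSK2830371 and 1.37 for DMSO on the log2 scale. Pabpc1, the poly(A)-binding protein, averaged 14094 in GSK2830371 kidneys, 14378 in DMSO kidneys and 25365 in control kidneys, with differences of -0.86 for GSK2830371 (adjusted p = 0.0029) and -0.83 for DMSO (adjusted p = 0.0031).

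Among 23 genes of the RNA polymerase III machinery, 5 were higher and 4 lower in GSK2830371 kidneys, and 5 were higher and 4 lower in DMSO kidneys. Among all tested genes 46.3% changed in GSK2830371 and 48.3% in DMSO kidneys, so the list changed no more often than genes at large. The median difference from control was -0.10 for GSK2830371 and 0.19 for DMSO. Gtf3c2, a subunit of the factor that recognises the internal promoters of transfer RNA genes, averaged 903 ± 128 in GSK2830371 kidneys, 979 ± 85.6 in DMSO kidneys and 2337 ± 513 in control kidneys (SD). Its log2 difference was -1.36 for GSK2830371 (adjusted p = 1.2e-05) and -1.23 for DMSO (adjusted p = 2.6e-05). Gtf3c1, the largest subunit of that factor, differed by -1.19 for GSK2830371 (adjusted p = 0.00019) and -1.14 for DMSO (adjusted p = 0.00025). Maf1, the repressor of the polymerase, averaged 5531 in GSK2830371 kidneys, 4734 in DMSO kidneys and 4064 in control kidneys and passed no test.

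Of the 3 imprinted RNAs, Kcnq1ot1 was several-fold lower in both i-TERTci groups, H19 was low and scattered, and Meg3 overlapped throughout. Kcnq1ot1 is read antisense to Kcnq1 over 93092 bases (chr7:143203458-143296549, minus strand). It had 43.4, 64.7, 119, 101 and 156 normalised counts in GSK2830371 kidneys, 133, 99.3, 173, 108 and 211 in DMSO kidneys, and 1406, 365, 572 and 447 in control kidneys. The lowest control lay above the highest i-TERTci library, and the first control stood well above the other 3. The control mean was 7.21 times that of GSK2830371 kidneys and 4.81 times that of DMSO kidneys, and without the first control replicate 4.77 times that of GSK2830371 and 3.18 times that of DMSO kidneys. The log2 difference was -2.76 for GSK2830371 and -2.10 for DMSO, with an SE of 0.41.

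Kcnq1 itself, a potassium channel gene on the opposite strand, averaged 2709 ± 662 in GSK2830371 kidneys, 2038 ± 620.3 in DMSO kidneys and 2291 ± 252 in control kidneys (SD), and the groups overlapped. The strand setting of the counting is not given in the sources used here, so reads over the shared interval may not be separated.

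Other genes around H19 and Kcnq1ot1 were lower where they passed the test. In the H19-Igf2 and Kcnq1 imprinted region, only part of which Kcnq1ot1 is known to silence, 11 other genes were tested, of which 0 were higher and 4 lower in GSK2830371 kidneys and 0 were higher and 5 lower in DMSO kidneys. Their median was -0.63 for GSK2830371 and -0.61 for DMSO, beside 0.01 for GSK2830371 and 0.03 for DMSO over all tested genes. Among all tested genes 22% were lower in GSK2830371 and 23.1% in DMSO kidneys. Phlda2, a gene of the cluster that restrains placental growth, averaged 198 ± 79.1 in GSK2830371 kidneys, 337 ± 162 in DMSO kidneys and 1154 ± 411 in control kidneys (SD). Its log2 difference was -2.56 for GSK2830371 (adjusted p = 4.5e-05) and -1.82 for DMSO (adjusted p = 0.00060). Slc22a18, a transporter gene next to it, averaged 10517 in GSK2830371 kidneys, 10589 in DMSO kidneys and 21880.3 in control kidneys, with differences of -1.10 for GSK2830371 (adjusted p = 0.0031) and -1.09 for DMSO (adjusted p = 0.0029). Nap1l4, a histone chaperone gene, averaged 3492 ± 218 in GSK2830371 kidneys, 3494 ± 380.2 in DMSO kidneys and 2829 ± 365 in control kidneys (SD) and did not pass the test, with differences of 0.31 for GSK2830371 (adjusted p = 0.063) and 0.31 for DMSO (adjusted p = 0.064). Cdkn1c, the cell cycle inhibitor of the cluster, averaged 1301 ± 363 in GSK2830371 kidneys, 1342 ± 219 in DMSO kidneys and 2069.8 ± 468 in control kidneys (SD). It stands outside the rule for named genes and was picked with its values known.

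H19 is the maternally expressed neighbour of Igf2 and hosts a microRNA (chr7:142575529-142578143, minus strand). It had 0, 0.98, 1.996, 12.3 and 0 normalised counts in GSK2830371 kidneys, 60.0, 0, 3.75, 0 and 3.35 in DMSO kidneys, and 20.0, 17.8, 6.09 and 26.2 in control kidneys. Both i-TERTci groups overlapped the controls, and 49 of the 57 DMSO reads came from 1 mouse. The log2 difference from control was -2.80 for GSK2830371 and -1.996 for DMSO, with an SE of 1.06. Without the first DMSO replicate it was -2.96 for DMSO, while the count-based tools gave -0.44 (edgeR) and -0.40 (DESeq2) with all libraries, so its size depends on that mouse and on the scale.

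Meg3 is the maternally expressed RNA of the Dlk1-Dio3 region (chr12:109541001-109571726, plus strand). It had 67.3, 77.4, 36.9, 101 and 49.8 normalised counts in GSK2830371 kidneys, 17.1, 53.8, 116, 56.7 and 71.3 in DMSO kidneys, and 124, 59.2, 47.7 and 75.1 in control kidneys. All groups overlapped, with a log2 difference from control of -0.19 for GSK2830371 and -0.41 for DMSO and an SE of 0.47. Of 6 other genes of the region, 0 were higher and 2 lower in GSK2830371 kidneys, and 0 were higher and 2 lower in DMSO kidneys. Among all tested genes 22% were lower in GSK2830371 and 23.1% in DMSO kidneys. Dlk1, the paternally expressed ligand, averaged 29.0 ± 28.8 in GSK2830371 kidneys, 40.2 ± 17.9 in DMSO kidneys and 103 ± 61.0 in control kidneys (SD), with differences of -2.40 for GSK2830371 (adjusted p = 0.019) and -1.28 for DMSO (adjusted p = 0.18). Dio3os, read from the strand opposite to Dio3, averaged 428 ± 361 in GSK2830371 kidneys, 352 ± 257 in DMSO kidneys and 102 ± 47.1 in control kidneys (SD), with differences of 1.66 for GSK2830371 (adjusted p = 0.084) and 1.48 for DMSO (adjusted p = 0.12). Begain averaged 7.56 in GSK2830371 kidneys, 9.74 in DMSO kidneys and 38.6 in control kidneys, with differences of -2.13 for GSK2830371 (adjusted p = 0.0061) and -1.98 for DMSO (adjusted p = 0.0089).

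Among 18 imprinted genes of other regions, 6 were higher and 2 lower in GSK2830371 kidneys and 3 were higher and 3 lower in DMSO kidneys. Among all tested genes 46.3% changed in GSK2830371 and 48.3% in DMSO kidneys, so the list changed no more often than genes at large. Igf2r, the receptor that clears the growth factor Igf2, averaged 7594 in GSK2830371 kidneys, 8181 in DMSO kidneys and 3908 in control kidneys, with log2 differences of 0.99 for GSK2830371 (adjusted p = 0.00082) and 1.08 for DMSO (adjusted p = 0.00038). Airn, a long RNA read antisense to Igf2r, averaged 78.5 ± 17.2 in GSK2830371 kidneys, 89.2 ± 47.2 in DMSO kidneys and 161 ± 50.3 in control kidneys (SD). It too was picked with its values known, outside the rule.

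The architectural RNAs of the nucleus, Neat1 and Malat1, were the most abundant of the 9 by count, and neither separated i-TERTci from control kidneys. Neat1 (chr19:5824708-5845478, minus strand) had 3274, 1543, 21520.5, 15493 and 14555 normalised counts in GSK2830371 kidneys, 17315, 16947, 15549, 10814 and 25004 in DMSO kidneys, and 18169, 11476, 22070.4 and 11046 in control kidneys. The first and the second GSK2830371 library were far below the other 12, which lay between 10814 and 25004. They were at 31 and 49 days on doxycycline, and 1 of them was Xist-positive and the other Xist-negative. Those libraries also had the lowest Kcnq1ot1 of all 14, at 43.4 and 64.7. Their Malat1 was not low.

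**Figure D3:**
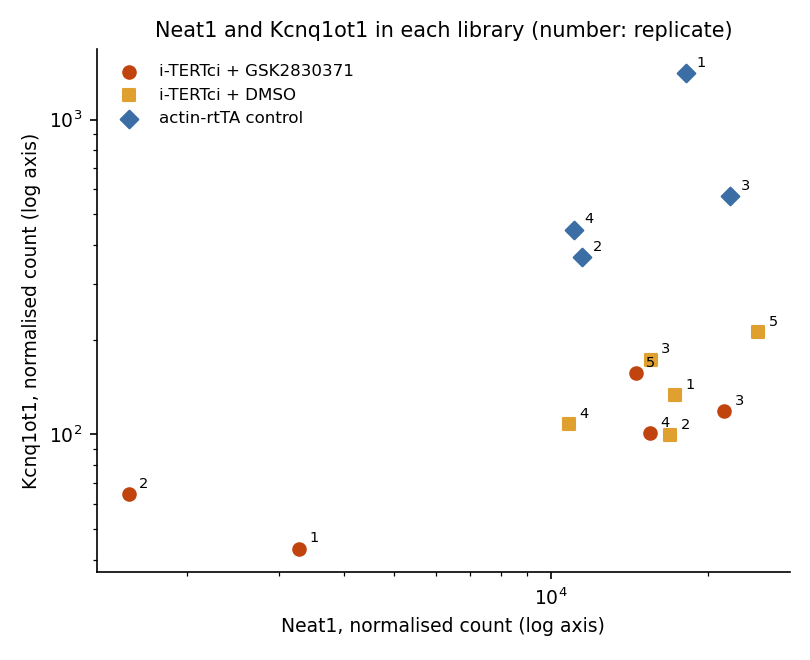
Neat1 against Kcnq1ot1 in each library, as normalised counts on log axes, with the replicate number beside each point. GSK2830371 kidneys are circles, DMSO kidneys squares and controls diamonds. The first and second GSK2830371 libraries lie apart at the lower left and the 4 controls lie highest for Kcnq1ot1.

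Malat1 (chr19:5795690-5802672, minus strand) had 29762, 27489, 19611, 16596 and 24615 normalised counts in GSK2830371 kidneys, 41192, 14105, 42659.7, 12934 and 29881 in DMSO kidneys, and 30852, 13349.8, 22104 and 16654 in control kidneys. The groups overlapped, and the log2 difference from control was 0.23 for GSK2830371 and 0.34 for DMSO, with an SE of 0.36. The difference of Neat1 was -0.99 for GSK2830371 and 0.14 for DMSO, with an SE of 0.64. Without the second GSK2830371 replicate, the GSK2830371 difference of Neat1 from control was -0.42.

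Gm37376, annotated within Malat1 on the opposite strand, averaged 61.0 ± 15.1 in GSK2830371 kidneys, 86.7 ± 45.0 in DMSO kidneys and 3.09 ± 5.41 in control kidneys (SD). Its libraries did not overlap between i-TERTci and control kidneys, unlike those of Malat1 over the same interval. This gene was also picked with its values known.

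Proteins of paraspeckles and nuclear speckles were more often higher than lower, in a data set where 24.3% of all tested genes were higher in GSK2830371 and 25.2% in DMSO kidneys. Of 20 paraspeckle proteins, 13 were higher and 2 lower in GSK2830371 than in control kidneys, and 11 were higher and 2 lower in DMSO than in control kidneys. Their median difference was 0.55 for GSK2830371 and 0.60 for DMSO. Taf15, an RNA-binding protein of paraspeckles, averaged 2958 ± 649 in GSK2830371 kidneys, 3221 ± 863 in DMSO kidneys and 973 ± 152 in control kidneys (SD). Its log2 difference was 1.59 for GSK2830371 (adjusted p = 2.4e-05) and 1.70 for DMSO (adjusted p = 1.3e-05).

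Of 22 nuclear speckle proteins, 7 were higher and 1 lower in GSK2830371 kidneys and 10 were higher and 2 lower in DMSO kidneys, where 46.3% (GSK2830371) and 48.3% (DMSO) of all tested genes changed in either direction. Srsf5, a splicing factor, averaged 15908 ± 5160.1 in GSK2830371 kidneys, 15282 ± 3085 in DMSO kidneys and 4341 ± 1198 in control kidneys (SD), with differences of 1.84 for GSK2830371 (adjusted p = 5.6e-05) and 1.83 for DMSO (adjusted p = 5.1e-05). Srrm2, a core speckle protein, averaged 21907 in GSK2830371 kidneys, 21414 in DMSO kidneys and 25787 in control kidneys and passed no test.

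The snoRNA hosts Gas5 and Snhg1 were higher in every i-TERTci library than in every control, while Snhg12 overlapped. Gas5 (chr1:161034422-161038539, plus strand), named for its rise in growth-arrested cells, had 2460.1, 1993, 1916, 1299 and 1191 normalised counts in GSK2830371 kidneys, 2991, 2611, 2558, 2539 and 1453 in DMSO kidneys, and 779, 709, 1146 and 553 in control kidneys. The GSK2830371 mean was 2.22 times and the DMSO mean 3.05 times the control mean. The log2 difference was 1.15 for GSK2830371 and 1.62 for DMSO, with an SE of 0.26.

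Snhg1 (chr19:8723475-8726443, plus strand) had 674, 478, 340.3, 259 and 301 normalised counts in GSK2830371 kidneys, 591, 283, 452, 858 and 337 in DMSO kidneys, and 177, 126, 223 and 108 in control kidneys. The lowest i-TERTci library, at 259, lay above the highest control, at 223. The log2 difference was 1.33 for GSK2830371 and 1.60 for DMSO, with an SE of 0.35. Snhg12 (chr4:132308623-132311024, plus strand) had 475, 347, 327, 240.2 and 349 normalised counts in GSK2830371 kidneys, 414, 372, 343, 608 and 336 in DMSO kidneys, and 352, 267, 313 and 212 in control kidneys. Its groups overlapped, with a log2 difference of 0.27 for GSK2830371 and 0.52 for DMSO and an SE of 0.23.

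Over the 9 members, 4 had no overlap between GSK2830371 and control libraries, where 40.3% of all tested genes had none (20.8% higher and 19.6% lower). The same 4 had none between DMSO and control libraries, where 38.8% of all tested genes had none (20% higher and 18.8% lower). They were Bc1 and Kcnq1ot1, which were lower, and Gas5 and Snhg1, which were higher. As the members were chosen on this contrast, nothing is read from the count.

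**Figure D4:**
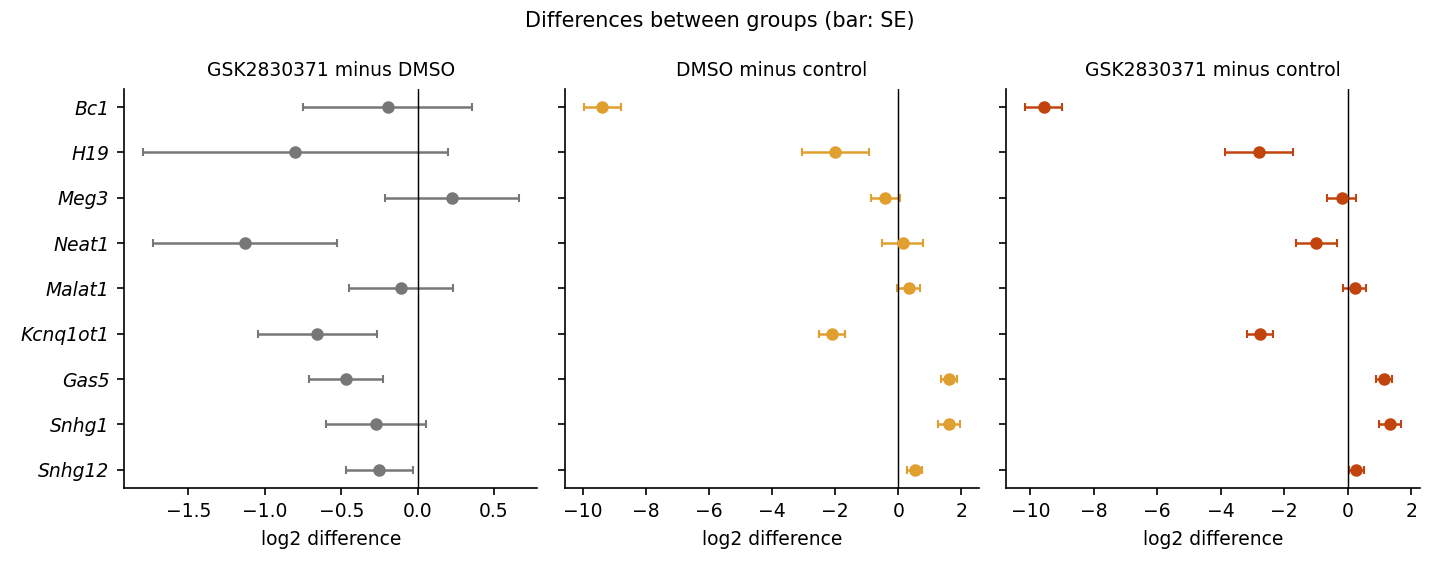
Log2 difference of each of the 9 RNAs in the 3 comparisons, on the log2(normalised count + 1) scale. Points are fitted differences and bars are SE (5 GSK2830371, 5 DMSO and 4 control libraries), and the panels differ in the range of the axis. Bc1 lies at -9.58 (GSK2830371) and -9.38 (DMSO) in the comparisons with control.

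Gas5, Snhg1 and Snhg12 contain 10, 8 and 5 annotated snoRNA genes, of which 0 were among the genes of the tables. Hosts of this kind often start with a run of pyrimidines, as ribosomal protein genes do. To show that start, the windows below run from 10 bases before to 30 bases from a RefSeq start on GRCm38.p6, with the letters CTTTC in capitals where present.
Gas5, first start: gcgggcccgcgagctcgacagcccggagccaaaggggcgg
Gas5, second start: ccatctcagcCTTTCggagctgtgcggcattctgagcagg
Snhg12: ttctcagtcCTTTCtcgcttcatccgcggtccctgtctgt
Snhg1: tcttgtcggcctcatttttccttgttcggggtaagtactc
They lie at chr1:161034591-161034630, chr1:161035156-161035195, chr4:132308668-132308707 and chr19:8723477-8723516, all on the plus strand. CTTTC was searched on the transcript strand only and occurred in 4 of 20 windows of host genes, beside 4.85% of 32851 RefSeq windows of this size. A match is a description of these letters and not of binding.

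Most other snoRNA hosts moved with Gas5 and Snhg1. Of 16 tested hosts that are not members, 10 were higher and 1 lower in GSK2830371 kidneys, and 10 were higher and 1 lower in DMSO kidneys, each against controls. Among all tested genes 24.3% were higher in GSK2830371 and 25.2% in DMSO kidneys. The median log2 difference of the 16 hosts was 0.85 for GSK2830371 and 1.10 for DMSO. Snhg5 averaged 347 ± 186 normalised counts in GSK2830371 kidneys, 359.7 ± 118 in DMSO kidneys and 62.0 ± 13.4 in control kidneys (SD), with log2 differences of 2.32 for GSK2830371 (adjusted p = 0.00016) and 2.47 for DMSO (adjusted p = 9.0e-05). It was picked with its values known, as the host with the largest difference.

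Zfas1, which hosts snoRNAs of the box C/D class, averaged 878 ± 373 in GSK2830371 kidneys, 929 ± 177 in DMSO kidneys and 254 ± 87.8 in control kidneys (SD), with differences of 1.75 for GSK2830371 (adjusted p = 0.00059) and 1.93 for DMSO (adjusted p = 0.00025). Snhg8 averaged 438 ± 94.1 in GSK2830371 kidneys, 495 ± 70.5 in DMSO kidneys and 143 ± 46.2 in control kidneys (SD), with differences of 1.64 for GSK2830371 (adjusted p = 6.6e-05) and 1.83 for DMSO (adjusted p = 2.4e-05). The host that fell was Snhg18, at 1029 in GSK2830371 kidneys, 1128 in DMSO kidneys and 1962 in control kidneys, with differences of -0.93 for GSK2830371 (adjusted p = 0.00013) and -0.80 for DMSO (adjusted p = 0.00034). Snhg11, the most abundant of the hosts outside the 9, averaged 2419 in GSK2830371 kidneys, 2797 in DMSO kidneys and 2151 in control kidneys and passed no test.

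**Figure D5:**
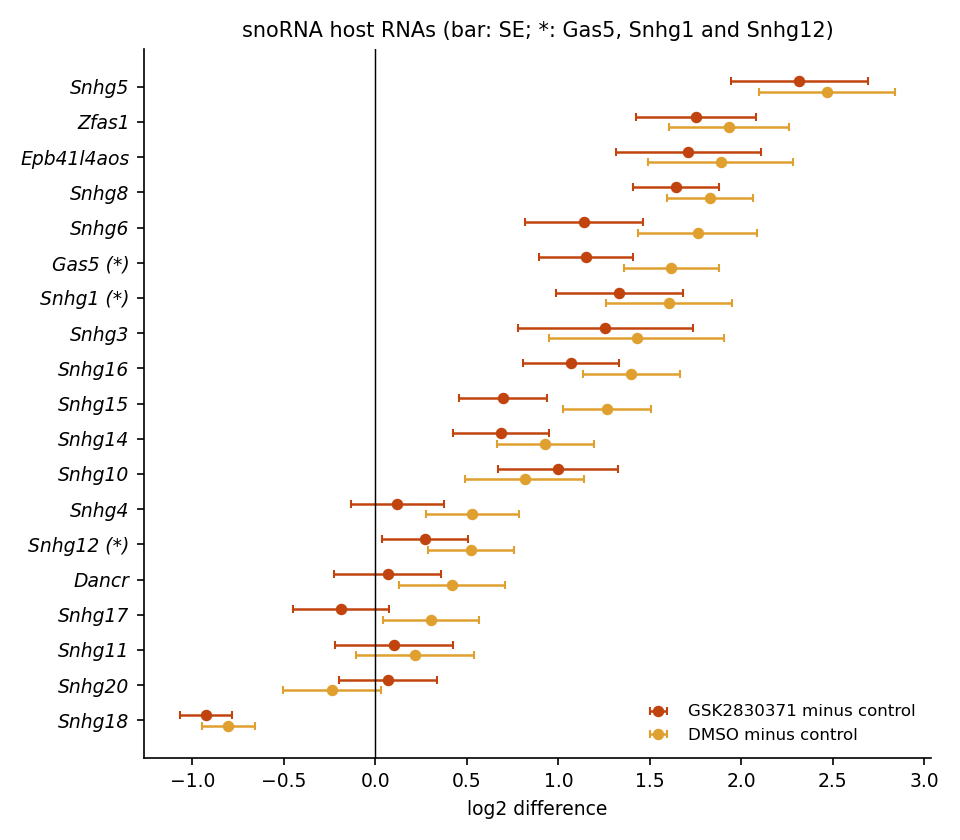
Log2 differences of the 19 tested snoRNA host RNAs from the controls, with SE, for GSK2830371 and DMSO kidneys. Asterisks mark Gas5, Snhg1 and Snhg12. Snhg5 is the highest and Snhg18 the lowest in both.

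The snoRNAs themselves were scarcely read. All 69 annotated snoRNA genes in the tables together took 0.000828% to 0.00109% of reads in GSK2830371 kidneys, 0.000843% to 0.00134% in DMSO kidneys and 0.000269% to 0.000656% in control kidneys. Of the 8 tested genes with a snoRNA or scaRNA name, 4 were higher and 1 lower in GSK2830371 kidneys, and 5 were higher and 1 lower in DMSO kidneys. Among all tested genes 24.3% were higher in GSK2830371 and 25.2% in DMSO kidneys. Snord71 averaged 11.2 in GSK2830371 kidneys, 10.1 in DMSO kidneys and 1.06 in control kidneys.

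Ribosomal protein genes were also more often higher than lower. Of 85, 34 were higher and 9 lower in GSK2830371 kidneys and 42 were higher and 9 lower in DMSO kidneys, with a median difference of 0.32 for GSK2830371 and 0.53 for DMSO. Among all tested genes 24.3% were higher in GSK2830371 and 25.2% in DMSO kidneys. Rpl22l1, a paralogue of Rpl22, averaged 1482 ± 408 in GSK2830371 kidneys, 1957 ± 686 in DMSO kidneys and 242 ± 102 in control kidneys (SD). Its log2 difference was 2.67 for GSK2830371 (adjusted p = 8.0e-06) and 3.04 for DMSO (adjusted p = 2.5e-06). Rpl4 averaged 29395 in GSK2830371 kidneys, 30435 in DMSO kidneys and 25266 in control kidneys and passed no test.

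Spliced Gas5 and other host transcripts are degraded by nonsense-mediated decay. Of 14 factors of this pathway, 4 were higher and 4 lower in GSK2830371 kidneys and 4 were higher and 2 lower in DMSO kidneys. Among all tested genes 46.3% changed in GSK2830371 and 48.3% in DMSO kidneys. Upf1, the central helicase of the pathway, averaged 2926 ± 576 in GSK2830371 kidneys, 3306 ± 501 in DMSO kidneys and 4789 ± 518 in control kidneys (SD), with differences of -0.73 for GSK2830371 (adjusted p = 0.0024) and -0.54 for DMSO (adjusted p = 0.014). Smg1, the kinase that acts on Upf1, differed by 0.88 for GSK2830371 (adjusted p = 0.00054) and 0.89 for DMSO (adjusted p = 0.00044).

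Zbtb37, a zinc finger gene on the strand opposite to Gas5 that overlaps it, averaged 779 ± 138 in GSK2830371 kidneys, 918 ± 344 in DMSO kidneys and 411 ± 84.3 in control kidneys (SD). Reads over the overlap may not be separated from Gas5. The summed level of all measured snoRNA hosts, members included, was 7854 to 12807 normalised counts in GSK2830371 kidneys, 10661 to 13938 in DMSO kidneys and 6627 to 8338 in control kidneys.

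RNA of some cell type markers also differed between i-TERTci and control kidneys, and its part in the values above was not tested. The counts below stand beside 24.3% of all tested genes higher and 22% lower in GSK2830371 kidneys. For DMSO kidneys these shares were 25.2% higher and 23.1% lower. Of 12 neutrophil markers, 11 were higher in GSK2830371 and 11 in DMSO kidneys, with summed levels of 546 to 22850.2 normalised counts in GSK2830371 kidneys, 1035 to 31714 in DMSO kidneys and 161 to 264 in control kidneys. Mpo and Ly6g were at 0 in all controls. Of 10 macrophage markers, 5 were higher and 0 lower in GSK2830371 kidneys and 5 higher and 1 lower in DMSO kidneys. Their sums were 14299 to 42907 in GSK2830371 kidneys, 8863 to 45801 in DMSO kidneys and 9025 to 13708 in control kidneys. Of 8 T cell markers, 0 were higher and 2 lower in GSK2830371 kidneys and 0 were higher and 3 lower in DMSO kidneys, with sums of 178 to 357 in GSK2830371 kidneys, 165 to 859 in DMSO kidneys and 489 to 1270.3 in control kidneys. Of 6 endothelium markers, 1 was higher and 3 lower in GSK2830371 kidneys and 1 was higher and 3 lower in DMSO kidneys, with sums of 17770.3 to 23014 in GSK2830371 kidneys, 16193 to 21166 in DMSO kidneys and 21797 to 27620 in control kidneys. Of 11 kidney epithelium markers, 4 were lower in GSK2830371 and 4 in DMSO kidneys. Their sums of 316460 to 652930 in GSK2830371 kidneys, 388993 to 946922 in DMSO kidneys and 694188 to 1042250 in control kidneys show kidney RNA in every library.

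Between GSK2830371 and DMSO kidneys, none of the 9 RNAs differed past the threshold. GSK2830371 replicates 2, 3 and 4 were at 49 days on doxycycline, while no DMSO kidney was past 38 days. Inhibitor and time on doxycycline therefore cannot be fully told apart. In this comparison 0 of 9 members and 0% of all 18810 tested genes passed an adjusted p of 0.05 with limma. By limma 800 genes had an unadjusted p under 0.05, fewer than the 940.5 that this threshold gives with no difference in any gene. EdgeR called 0 genes and DESeq2 1 gene (Il1b). No member separated the groups without overlap, as 0.484% of all tested genes did (0.239% higher and 0.245% lower). The adjusted p was 0.99 for each member, so the sizes below are given with their 95% intervals, which do not show that the groups are alike.

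Neat1 differed by -1.13 on the log2(normalised count + 1) scale (interval -2.43 to 0.17, unadjusted p = 0.083 by limma). Without the second GSK2830371 replicate it was -0.56. Gas5 differed by -0.47 (-0.98 to 0.05, unadjusted p = 0.073 by limma) and Kcnq1ot1 by -0.66 (-1.48 to 0.17, unadjusted p = 0.11 by limma). For Gas5, the highest GSK2830371 library reached 2460.1, while 4 of 5 DMSO libraries lay at or above 2539 and the fifth, at 1453, lay within the GSK2830371 range.

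The remaining members had intervals that reached well to both sides of 0. The difference was -0.20 for Bc1 (-1.37 to 0.98), -0.80 for H19 (-2.92 to 1.32, with a GSK2830371 mean of 3.05 and a DMSO mean of 13.4 normalised counts), 0.22 for Meg3 (-0.71 to 1.15) and -0.11 for Malat1 (-0.83 to 0.62). It was -0.27 for Snhg1 (-0.96 to 0.42) and -0.25 for Snhg12 (-0.72 to 0.22). Of the 16 other snoRNA hosts, 0 were called and 2 had a positive difference, with a median of -0.18.

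The sex of the mice is not in the labels. Over 1000 Xist reads were found in 3 GSK2830371, 2 DMSO and all 4 control libraries. With these 9 libraries alone, Bc1 differed from control by -9.22 for GSK2830371 and -8.74 for DMSO and Kcnq1ot1 by -2.70 for GSK2830371 and -2.05 for DMSO. Gas5 differed by 1.15 for GSK2830371 and 1.34 for DMSO and Snhg1 by 1.18 for GSK2830371 and 1.01 for DMSO. With libraries at 31 days or fewer alone, Bc1 differed by -10.11 for GSK2830371 and -9.09 for DMSO and Kcnq1ot1 by -2.85 for GSK2830371 and -2.01 for DMSO. Only replicates 1 and 5 of the GSK2830371 group, at 31 and 28 days, were left in that setting.

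Within the i-TERTci kidneys, some members varied alike from mouse to mouse. Over the 10 i-TERTci libraries the log2 values of Snhg1 and Snhg12 had a Pearson r of 0.86, given as a description of libraries that share their scaling. By the same measure the genes most like Meg3 were Map3k20, a stress kinase, at 0.96, Incenp, a subunit of the chromosomal passenger complex, at 0.93, and Rrm2, a subunit of ribonucleotide reductase, at 0.92. Among those most like Neat1 were Il10rb, a subunit of cytokine receptors, at 0.94 and the podocyte cation channel Trpc6 at 0.93.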

How the data were processed

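RNA was sequenced from whole kidneys of 14 mice (5 GSK2830371, 5 DMSO and 4 control), with separate animals as replicates. Tools listed in the submitters' processing notes are STAR, Trimmomatic, FastQC and DESeq2, and the build is mm10; versions are not stated there. How reads were counted, with which annotation and strand setting, is not given in the sources used here. BGI made the libraries from RNA with an integrity number above 7, per the labels' protocols. The deposited values, called raw counts in the file names, are a signal: whole reads per gene divided by 1 factor per library. All values were whole multiples of that factor (100% within 0.001), and the controls recovered from both tables had 0 mismatches, so counts were restored for the 23682 genes in both tables.

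Counts were scaled by median-of-ratios size factors over 14 libraries, and log2(normalised count + 1) was fitted with limma 3.58.1 (trend and robust, R 4.3.3) over all libraries and the 18810 genes that passed edgeR's filter. P-values were adjusted by Benjamini-Hochberg over all tested genes, with a threshold of 0.05. In data simulated for DMSO minus control, 100% of genes changed by 2 on the log2 scale were recovered, as were 76% of those raised and 82% of those lowered by 1. The simulation gave every gene the same dispersion and changed only genes above a minimum mean in the controls. These rates may therefore not hold for low or widely scattered genes such as H19. Alternatives, 26 per result, used edgeR 4.0.16, DESeq2 1.42.0, other scalings, pseudocounts, filters and sets of libraries. Annotation was GENCODE M21 (GRCm38), which matched 96.2% of genes. Promoter windows were from RefSeq GRCm38.p6.

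The 9 members and 27 lists were chosen with earlier results of these data known. Genes named from a list were its 3 with the highest mean count and those with the smallest p in DMSO minus control and in GSK2830371 minus DMSO; some of them are not reported here. Counting error limits the precision of low counts, such as those of Bc1 in i-TERTci kidneys and of H19, and spread between mice adds to it.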

Additional observations from a re-analysis of the deposited data

Results flagged for a closer look

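Among 27 groups of libraries, 1 for each of the 9 RNAs in each group of mice, the highest library stood apart from the rest in 3 by Dixon's criterion, which chance exceeds in about 1 group in 20. H19 had 12.3 normalised counts in GSK2830371 replicate 4, where the next highest GSK2830371 library had 1.996. H19 had 60.0 in DMSO replicate 1, where the next highest DMSO library had 3.75. Snhg12 had 608 in DMSO replicate 4, where the next highest DMSO library had 414.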

How the results depend on the processing

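The number of genes past the threshold was 7068 to 9862 for GSK2830371 minus control (8714 as reported) and 6059 to 10250 for DMSO minus control (9079 as reported) over the 26 alternatives. For GSK2830371 minus DMSO it was 0 in 24 alternatives, 1 with DESeq2 (Il1b) and 2 with the Xist-positive libraries alone (Gm10036 and Gm6724). Scaling by total reads moved the median log2 difference of all genes by 0.33 for GSK2830371 and 0.32 for DMSO against control. It gave 6537 genes higher and 2264 lower in GSK2830371 kidneys (4568 and 4146 as reported), and 6556 higher and 2495 lower in DMSO kidneys (4743 and 4336 as reported).

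Bc1, H19, Malat1, Kcnq1ot1, Gas5, Snhg1 and Snhg12 kept their direction against controls in all 26 alternatives in both i-TERTci groups. Neat1 took the other sign in 3 for DMSO (-0.05 to 0.46 over all), and Meg3 in 2 for GSK2830371 (-0.38 to 0.14). The H19 difference ran between -4.06 and -1.74 for GSK2830371 and between -2.99 and -0.40 for DMSO. With a pseudocount of 4, the Bc1 difference was -8.18 for GSK2830371 and -8.09 for DMSO.

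Against DMSO, the GSK2830371 difference changed sign for 6 RNAs, none of which passed the test, and the cause was not tested. With the Xist-positive libraries alone it was 1.04 for H19, 0.016 for Malat1 and 0.17 for Snhg1. At 31 days or fewer it was -2.58 for H19 (-0.80 as reported, -1.98 with edgeR and -2.11 with DESeq2), 0.17 for Snhg1 and 0.16 for Snhg12. That setting kept only GSK2830371 replicates 1 and 5, and both had 0 reads of H19. Leaving out 1 library at a time gave -0.56 to 0.066 for Bc1, -1.42 to 0.17 for H19, -0.18 to 0.50 for Meg3 and -0.35 to 0.085 for Malat1. H19 changed sign without DMSO replicate 1.

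With the replicate number as a block (replicate block), 9248 genes passed for GSK2830371 minus control, 9588 for DMSO minus control and 0 for GSK2830371 minus DMSO. The numbers were not taken to pair the mice: deviations of same-numbered libraries correlated at 0.046 to 0.101, at -0.061 to 0.085 and at -0.031 to 0.335 in these comparisons. Depth limits Bc1 in i-TERTci kidneys (0 to 5 reads a library) and H19 in all groups.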

Other observations

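Other long noncoding RNAs moved in both directions, as did genes at large. Of 27 tested from a list of studied ones, 6 were higher and 7 lower in GSK2830371 kidneys, and 5 were higher and 5 lower in DMSO kidneys, each against controls. Among all tested genes 24.3% were higher and 22% lower in GSK2830371 kidneys, and 25.2% were higher and 23.1% lower in DMSO kidneys. Nothing is read from the counts of this list. Norad, which sequesters Pumilio proteins, averaged 8520 ± 842 normalised counts in GSK2830371 kidneys, 7569 ± 315 in DMSO kidneys and 2354 ± 533 in control kidneys (SD). Its log2 difference from control was 1.88 for GSK2830371 (adjusted p = 4.2e-07, limma) and 1.71 for DMSO (adjusted p = 9.7e-07). Mir17hg, the host of a microRNA cluster, differed by 1.32 for GSK2830371 (adjusted p = 0.0093) and 2.08 for DMSO (adjusted p = 0.00036).

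Replication-dependent histone genes, whose messenger RNAs carry no poly(A) tail, were lower where they changed. Of 15 tested, 0 were higher and 9 lower in GSK2830371 kidneys and 0 were higher and 9 lower in DMSO kidneys, with a median log2 difference of -1.60 for GSK2830371 and -1.30 for DMSO. Among all tested genes 22% were lower in GSK2830371 and 23.1% in DMSO kidneys. H1f3 averaged 3.37 ± 6.002 normalised counts in GSK2830371 kidneys, 3.04 ± 2.09 in DMSO kidneys and 113 ± 39.5 in control kidneys (SD).

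Igf2, the neighbour of H19, split the i-TERTci libraries along Xist, a split made from the data and not from the labels. In GSK2830371 kidneys it had 112 to 821 normalised counts in 3 Xist-positive libraries and 3.38 to 6.85 in 2 Xist-negative ones. In DMSO kidneys it had 219 to 341 in 2 Xist-positive libraries and 1.07 to 8.45 in 3 Xist-negative ones. The 4 controls, all Xist-positive, had 102 to 304.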
